A study of Arabidopsis thaliana with 35 samples.

Results

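Shoots of Arabidopsis thaliana harvested after 3 days with 10 mM ethanol were compared with shoots harvested before the pretreatment began. The 5 ethanol-treated libraries at 0 d after drought (0 DAD, the day on which watering stopped) and the 5 libraries from before the pretreatment were chosen by their column names, and they are 10 of the 35 libraries of the series, which has 7 groups. All genes were considered. Of 27417 genes in the count table, 24186 had reads in these 10 libraries and 17084 had enough counts to be tested.

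All plants were of the Col-0 ecotype, without a mutation or a transgene, and all samples were shoots. By the labels, seedlings spent 9 days on MS medium (10 days by the methods of the study) under 16 h of light, and then 5 days in pots of ceramic granular soil. The plants harvested before the pretreatment were taken at that stage. The ethanol-treated plants stood for 3 more days in trays with 10 mM ethanol, which reached the roots through the pots. Another group, the water-treated plants, stood in water for the same 3 days and is used here only as a reference for the ethanol-treated plants of equal age. The plants before the pretreatment were 3 days younger and harvested on another day, so ethanol, growth and day of harvest cannot be told apart in the comparison with them. The labels do not say that the libraries came from separate pots, so the p-values measure the spread between libraries.

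During these days a young rosette goes through the change from juvenile to adult leaves. Its timing is set by the microRNA miR156, which declines with age and releases SQUAMOSA PROMOTER BINDING PROTEIN-LIKE (SPL) transcription factors, which promote adult traits and flowering. Leaf growth also needs ribosomes, which are assembled in the nucleolus from ribosomal RNA and imported proteins. Genes of sugar starvation, among them the dark-inducible genes, are held down by sugars and by light and are known to be induced through the SnRK1 kinase when carbon runs short. Ethanol itself is oxidised by alcohol dehydrogenase to acetaldehyde, and aldehyde dehydrogenases make acetate from it.

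Total counts were 4162342 to 10122705 before the pretreatment and 3781405 to 9786902 after ethanol. Replicate 4 was the lowest in both groups. The total did not differ between groups beyond the spread of the libraries (exact permutation test, 2-sided, p = 0.833). The 10 most abundant genes took 12.5% ± 0.699 (SD, n = 5) of the counts after ethanol and 11.6% ± 0.458 (SD, n = 5) before (exact permutation test, 2-sided, p = 0.0317 and 0.0952 when adjusted over 3 measures). Chloroplast genes took 2.79% ± 0.215 and 2.75% ± 0.674. All 5 leaf markers were detected, with summed normalized counts of 232308 to 359985 after ethanol and 304411 to 345789 before. Of 11 root markers none had enough counts to be tested, with sums of 0.836 to 9.28 after ethanol and 0 to 7.89 before. EXPA7, EXPA18, PRP3, CASP4 and CASP5 were at 0 counts in all 10 libraries. In whole shoots, fewer cells of one type and less RNA in each of them cannot be told apart.

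After 3 days with ethanol, 302 genes were higher and 368 lower than before the pretreatment. Genes were called at a false discovery rate (FDR, the adjusted p of edgeR) under 0.1 where the level also differed 2-fold or more, that is by 1 or more on the log2 scale. These 670 genes are 3.92% of the 17084 tested, 1.77% higher and 2.15% lower. The median log2 fold change was 1.22 among the genes called higher, -1.28 among those called lower and 0.01 among all genes tested. Only 32 of the higher and 26 of the lower genes differed by 4-fold or more. By the FDR alone 4740 genes (27.7%) passed, of which 2116 (12.4%) were higher and 2624 (15.4%) lower, so that most differences were smaller than 2-fold. In 188 of the 302 higher genes every ethanol-treated library was above every library from before in normalized counts, in 257 of the 368 lower genes it was below, and of all genes tested 2619 (15.3%) had such separate groups.

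**Figure D1:**
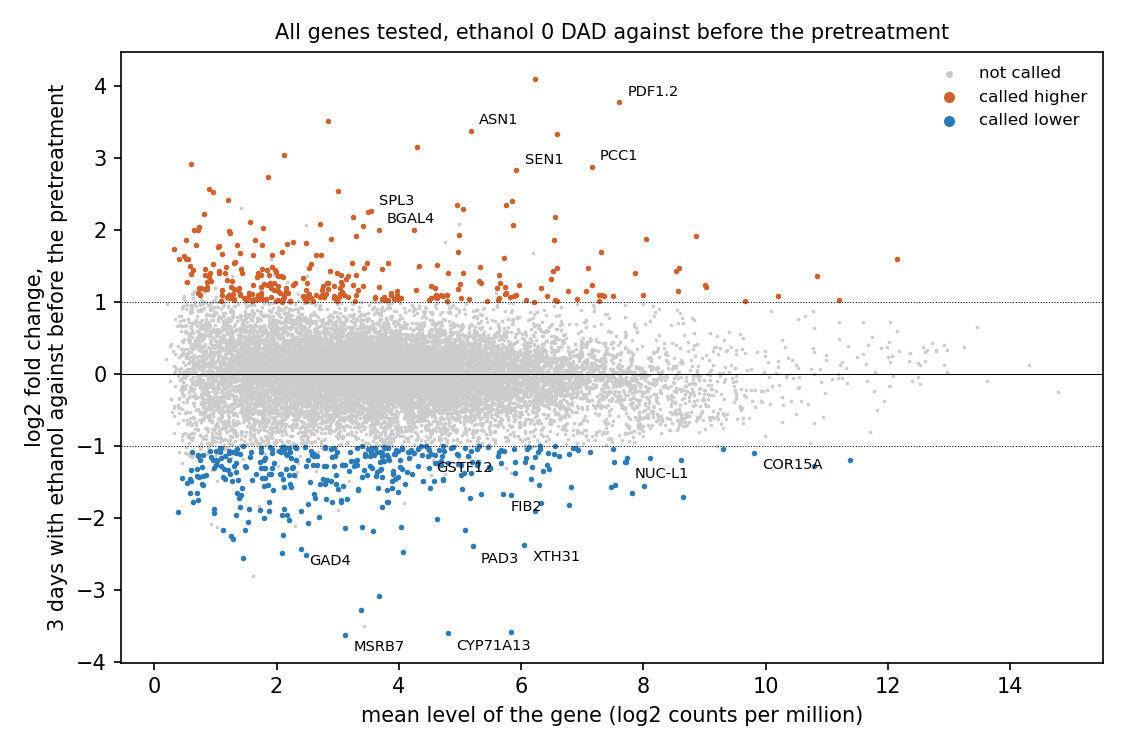
Log2 fold change of every gene tested (y axis, ethanol-treated plants at 0 DAD against plants before the pretreatment) against its mean level in log2 CPM (x axis). Orange points are the 302 genes called higher, blue points the 368 called lower and grey points the others; dotted lines mark log2 fold changes of 1 and -1.

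The gene with the largest increase, among those whose groups did not overlap and whose raw counts averaged 20 or more, was ASN1 (AT3G47340, chromosome 3, 17437840 to 17441431, minus strand, TAIR10.1), which encodes a glutamine-dependent asparagine synthetase. Before the pretreatment its normalized counts, the raw counts divided by 1 factor for each library, were 49.9, 67.4, 43.0, 35.9 and 31.1. After ethanol they were 373, 493, 423, 452 and 665. Every ethanol-treated library exceeded every library from before more than 5-fold. The log2 fold change was 3.38 (SE 0.209, FDR 4.39e-08). In the water-treated plants the level was 422 ± 111 (SD, n = 5), and ASN1 did not differ between ethanol and water beyond the spread (log2 fold change 0.20, SE 0.219, FDR 0.827).

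PCC1 (AT3G22231), a small gene controlled by pathogens and by the clock, was the next by the same criteria. Its normalized counts were 141, 303, 105, 444 and 298 before and 1236, 1896, 2257, 2050.3 and 1745 after ethanol. The groups stood far apart (log2 fold change 2.88, SE 0.395, FDR 0.000982). Its neighbour AT3G22235, annotated as a cysteine-rich TM module stress tolerance protein, went from 90.5 to 183 before to 568 to 870.5 after (log2 fold change 2.4, FDR 2.4e-06). The sequences of this pair are near-identical (at least 95% over 100 bp), so reads can be shared and the single values are uncertain. XTH25, a cell wall xyloglucan enzyme, rose from a mean of 6.25 ± 3.88 (SD, n = 5) to 42.6 ± 14.4 (SD, n = 5), a log2 fold change of 2.74 (FDR 8.84e-06). With water against the starting plants, PCC1, AT3G22235 and XTH25 had log2 fold changes of 1.70, 1.64 and 1.72. Between ethanol and water, AT3G22235 had 0.77 (edgeR FDR 0.00823) and XTH25 1.03 (edgeR FDR 0.226).

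RL6 and MEE3 encode small MYB-related proteins of the RADIALIS type. RL6 had 22.6, 17.9, 14.1, 20.8 and 10.9 normalized counts before and 83.6, 77.3, 122, 156 and 66.0 after ethanol (log2 fold change 2.54, SE 0.266, FDR 1.24e-07). MEE3 had 58.8 to 107 before and 341 to 451 after (log2 fold change 2.29, SE 0.138, FDR 2.27e-11). Both were above their earlier range in all ethanol-treated libraries. AT4G27450, annotated as an aluminum induced protein with YGL and LRDR motifs, rose from 73.9 ± 12.7 to 379 ± 80.4 (SD, n = 5 each; log2 fold change 2.34, FDR 1.6e-10). With water against the starting plants, RL6, MEE3 and AT4G27450 had log2 fold changes of 2.02, 2.37 and 1.73. Between ethanol and water they had 0.52, -0.08 and 0.62, and none passed the FDR.

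The largest decrease was that of MSRB7 (AT4G21830), a methionine sulfoxide reductase, which repairs oxidised methionine. Its normalized counts were 35.1, 174, 22.0, 104 and 235 before and 9.84, 15.5, 6.22, 12.8 and 2.51 after ethanol. The starting libraries differed among themselves by more than 10-fold, yet all were above the ethanol-treated ones (log2 fold change -3.62, SE 0.816, FDR 0.0139). TPS04 (AT1G61120), a terpene synthase of volatile formation, behaved alike, with 51.4 to 232 before and 5.51 to 24.8 after (log2 fold change -3.28, SE 0.595, FDR 0.00425). With water against the starting plants, MSRB7 had a log2 fold change of -2.20 (edgeR FDR 0.2) and TPS04 of -2.47 (edgeR FDR 0.0852). Between ethanol and water neither passed the FDR (-1.42 and -0.85).

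Lower genes with a tighter spread were found as well. AT3G24420, an alpha/beta hydrolase, had 337, 385, 386, 440.2 and 499 normalized counts before and 87.7, 92.0, 76.5, 105 and 95.3 after ethanol (log2 fold change -2.16, SE 0.126, FDR 1.19e-11). XTH31, another xyloglucan enzyme, had 901, 794, 847, 929 and 648 before and 219.7, 159, 177, 56.9 and 158 after (log2 fold change -2.37, SE 0.259, FDR 0.000173). GAD4, a glutamate decarboxylase, which makes the amino acid GABA, fell from 63.6 ± 14.8 to 11.0 ± 6.03 (SD, n = 5 each; log2 fold change -2.43, FDR 1.66e-06). AT3G15720, a pectin lyase-like gene, fell from 25.2 to 86.5 down to 4.1 to 14.7 (log2 fold change -2.49, FDR 1.53e-05). For none of these 4 genes did the groups overlap. With water against the starting plants, the log2 fold changes of AT3G24420, XTH31, GAD4 and AT3G15720 were -2.05, -1.27, -1.98 and -1.93. Between ethanol and water they were -0.11, -1.10, -0.46 and -0.56, and none passed the FDR.

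Genes of ribosome biogenesis were lower together. All 12 members of this list were tested, 7 were called lower and 0 higher (against 2.15% lower among all genes), and the remaining 5 passed the FDR but not the fold threshold. The median log2 fold change of the list was -1.09, with a range of -1.67 to -0.45. For 11 of the 12 the groups did not overlap (9.13% of all genes were lower without overlap).

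NUC-L1 (AT1G48920), a nucleolin that acts on the genes and precursors of ribosomal RNA, had the highest level among them in normalized counts. It had 2209, 2102, 2211, 2161 and 2196 before and 982, 1003, 983, 914 and 758 after ethanol. Each group kept within a narrow range and the difference was more than 2-fold (log2 fold change -1.22, SE 0.0824, FDR 1.6e-10). FIB2 (AT4G25630), a fibrillarin that methylates ribosomal RNA, had 607, 577, 553, 588 and 585 before and 189, 239.8, 190.3, 149 and 135 after (log2 fold change -1.67, SE 0.12, FDR 3.62e-10). NOP56, a core protein of the box C/D particles in which fibrillarin works, had 653, 598, 688, 818 and 729 before and 366, 319, 296, 262 and 288 after (log2 fold change -1.17, SE 0.1, FDR 6.55e-09). None of the 3 genes had an ethanol-treated library within the range of the starting plants.

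AT5G27120, annotated as a NOP56-like ribonucleoprotein, fell from 779 ± 166 to 282 ± 53.0 (SD, n = 5 each; log2 fold change -1.46, FDR 4.49e-06). The other called members were AT3G05060 (-1.05), NAP57 (-1.14), the pseudouridine synthase of box H/ACA particles, and AT1G52930 (-1.14). FIB1, the second fibrillarin gene, had a log2 fold change of -0.78 and thus stayed under the fold threshold, with 903 to 1079 normalized counts before and 519 to 635.7 after.

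The promoters of FIB2, NOP56 and AT5G27120 are shown. The windows run from 250 bases before to 50 bases after the annotated gene start (RefSeq, TAIR10.1). Capitals mark the telo box (AAACCCTA, or TAGGGTTT on the other strand) and site II (TGGGCC, or GGCCCA), elements known from promoters of the translation machinery. FIB2 had the largest decrease of the list, NOP56 holds 5 matches and AT5G27120 holds 3.
FIB2 promoter, chr4:13073840-13074139, plus strand: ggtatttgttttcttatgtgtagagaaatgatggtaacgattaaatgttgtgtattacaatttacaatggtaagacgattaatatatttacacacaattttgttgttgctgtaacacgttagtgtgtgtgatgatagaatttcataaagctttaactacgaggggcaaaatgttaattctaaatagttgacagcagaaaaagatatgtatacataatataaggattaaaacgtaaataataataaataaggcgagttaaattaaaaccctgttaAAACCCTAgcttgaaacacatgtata
NOP56 promoter, chr1:20986903-20987202, minus strand: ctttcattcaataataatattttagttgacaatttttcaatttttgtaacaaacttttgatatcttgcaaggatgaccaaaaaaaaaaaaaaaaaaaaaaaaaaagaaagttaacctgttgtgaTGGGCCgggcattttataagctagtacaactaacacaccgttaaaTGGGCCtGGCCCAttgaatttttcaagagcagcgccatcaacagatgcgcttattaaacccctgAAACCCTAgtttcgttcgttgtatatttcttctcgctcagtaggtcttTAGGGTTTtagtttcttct
AT5G27120 promoter, chr5:9540611-9540910, plus strand: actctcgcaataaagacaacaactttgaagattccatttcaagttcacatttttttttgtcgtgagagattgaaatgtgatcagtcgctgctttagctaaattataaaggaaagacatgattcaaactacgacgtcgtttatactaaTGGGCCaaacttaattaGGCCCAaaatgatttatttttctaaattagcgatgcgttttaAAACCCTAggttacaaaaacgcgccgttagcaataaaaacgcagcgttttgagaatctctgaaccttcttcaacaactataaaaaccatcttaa
A telo box was found in 9 of the 12 promoters of the list (75.0%) and in 6.22% of 27443 promoters of nuclear protein-coding genes. Site II was found in 8 of the 12 (66.7%) and in 15.5% of all. Not every member held both: FIB2 had no site II, and PUM24 (AT3G16810), another member, had neither element. These matches describe the sequence and do not show that a factor was bound. Whether the elements had a part in the lower levels was not tested.

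The water-treated plants had lower values for this list as well. Against the same starting libraries, 5 of the 12 were called lower in the water-treated plants (1.34% of all genes in that comparison), with a median log2 fold change of -0.98. Between ethanol and water at 0 DAD, 0 of the 12 were called or passed the FDR (1.12% of all genes passed it, 1865 of 17242 at an unadjusted p under 0.05 in edgeR), and the log2 fold changes ran from -0.22 to 0.08.

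Genes of sugar starvation were higher. Of 13 members tested, 9 were called higher and 0 lower (against 1.77% higher among all genes), and 12 passed the FDR as higher. The median log2 fold change was 1.08, and the groups did not overlap for 8 members (6.20% of all genes were higher without overlap).

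SEN1 (AT4G35770), a dark-inducible gene with a rhodanese domain, had the largest increase of the list. Its normalized counts were 125, 118, 181, 56.7 and 59.6 before and 850.0, 652, 397, 791 and 1214 after ethanol (log2 fold change 2.83, SE 0.405, FDR 0.00125). DIN10, a raffinose synthase family gene also known as dark-inducible, had 228, 174, 183, 115 and 121 before and 854, 633, 582, 584 and 812 after (log2 fold change 2.07, SE 0.188, FDR 6.2e-06). BGAL4, a beta-galactosidase, had 42.9, 64.6, 36.0, 18.9 and 15.1 before and 78.7, 127, 149, 179.9 and 209.8 after (log2 fold change 2.0, SE 0.394, FDR 0.00497). All 3 genes were higher in every ethanol-treated library than in any library from before.

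The trehalose phosphate synthase-like genes rose less. TPS9 went from 3.78 to 35.1 before to 29.4 to 64.2 after, with an overlap of the groups (log2 fold change 1.26, FDR 0.00588). TPS10 and TPS11 had log2 fold changes of 1.02 and 1.05, and TPS8 0.67, under the fold threshold. Genes of branched-chain amino acid breakdown were on the list too, with BCAT-2, an aminotransferase, at 1.19, MCCA at 1.11, MCCB at 0.49 and IVD, isovaleryl-CoA dehydrogenase, at 0.40. EXO, a gene of growth under low carbon, was the single member that did not pass the FDR (log2 fold change -0.04, FDR 0.893).

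A gene of proline breakdown was higher as well. ERD5 (AT3G30775), the proline dehydrogenase gene of the mitochondrion, had 27.3, 45.9, 22.0, 32.1 and 14.3 normalized counts before and 162, 134, 104, 134 and 138 after ethanol (log2 fold change 2.25, SE 0.226, FDR 9.55e-08). With water against the starting plants its log2 fold change was 1.92 (edgeR FDR 2.38e-06). Between ethanol and water it was 0.34 (edgeR FDR 0.366). The promoters of ASN1 and ERD5, which are among the 10 largest increases by the criteria used for ASN1, are shown with the ACTCAT element (or ATGAGT), known from proline and hypoosmolarity responses, and the G-box (CACGTG, its own reverse complement) in capitals.
ASN1 promoter, chr3:17441382-17441681, minus strand: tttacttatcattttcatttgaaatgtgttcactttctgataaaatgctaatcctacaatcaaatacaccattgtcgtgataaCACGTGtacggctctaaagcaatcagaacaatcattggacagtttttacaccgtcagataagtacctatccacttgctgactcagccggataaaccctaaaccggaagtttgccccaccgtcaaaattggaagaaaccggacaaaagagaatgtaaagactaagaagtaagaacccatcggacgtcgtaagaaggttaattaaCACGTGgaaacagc
ERD5 promoter, chr3:12451507-12451806, minus strand: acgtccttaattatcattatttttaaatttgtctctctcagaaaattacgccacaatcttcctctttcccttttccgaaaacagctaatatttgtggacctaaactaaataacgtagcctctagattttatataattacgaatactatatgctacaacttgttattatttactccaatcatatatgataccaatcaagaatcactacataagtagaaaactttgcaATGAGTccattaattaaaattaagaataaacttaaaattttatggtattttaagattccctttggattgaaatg
The ASN1 window holds 2 G-boxes and the ERD5 window 1 ACTCAT element. The G-box was in 7.68% and the ACTCAT element in 14.7% of all 27443 promoters. Among the 13 sugar starvation promoters the G-box was in 0 and the ACTCAT element in 2.

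Against the same starting libraries, the water-treated plants had 4 of the 13 sugar starvation genes called higher (1.02% of all genes), with a median log2 fold change of 0.80. Between ethanol and water, 12 of the 13 were higher with ethanol and 1 lower, with a median log2 fold change of 0.34 (0.0009 among all genes tested). Of the 13, 0 were called (0.0986% of all genes), while 2 passed the FDR as higher in ethanol-treated plants (0.812% of all genes). These were DIN10 (log2 fold change 0.47, FDR 0.0957) and DYL1 (AT1G28330), a dormancy-associated gene that is named here after its values were seen. DYL1 had 715 to 863.3 normalized counts before the pretreatment, a log2 fold change of 0.12 with water, 1.08 with ethanol and 0.97 between ethanol and water (FDR 3.88e-05).

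**Figure D2:**
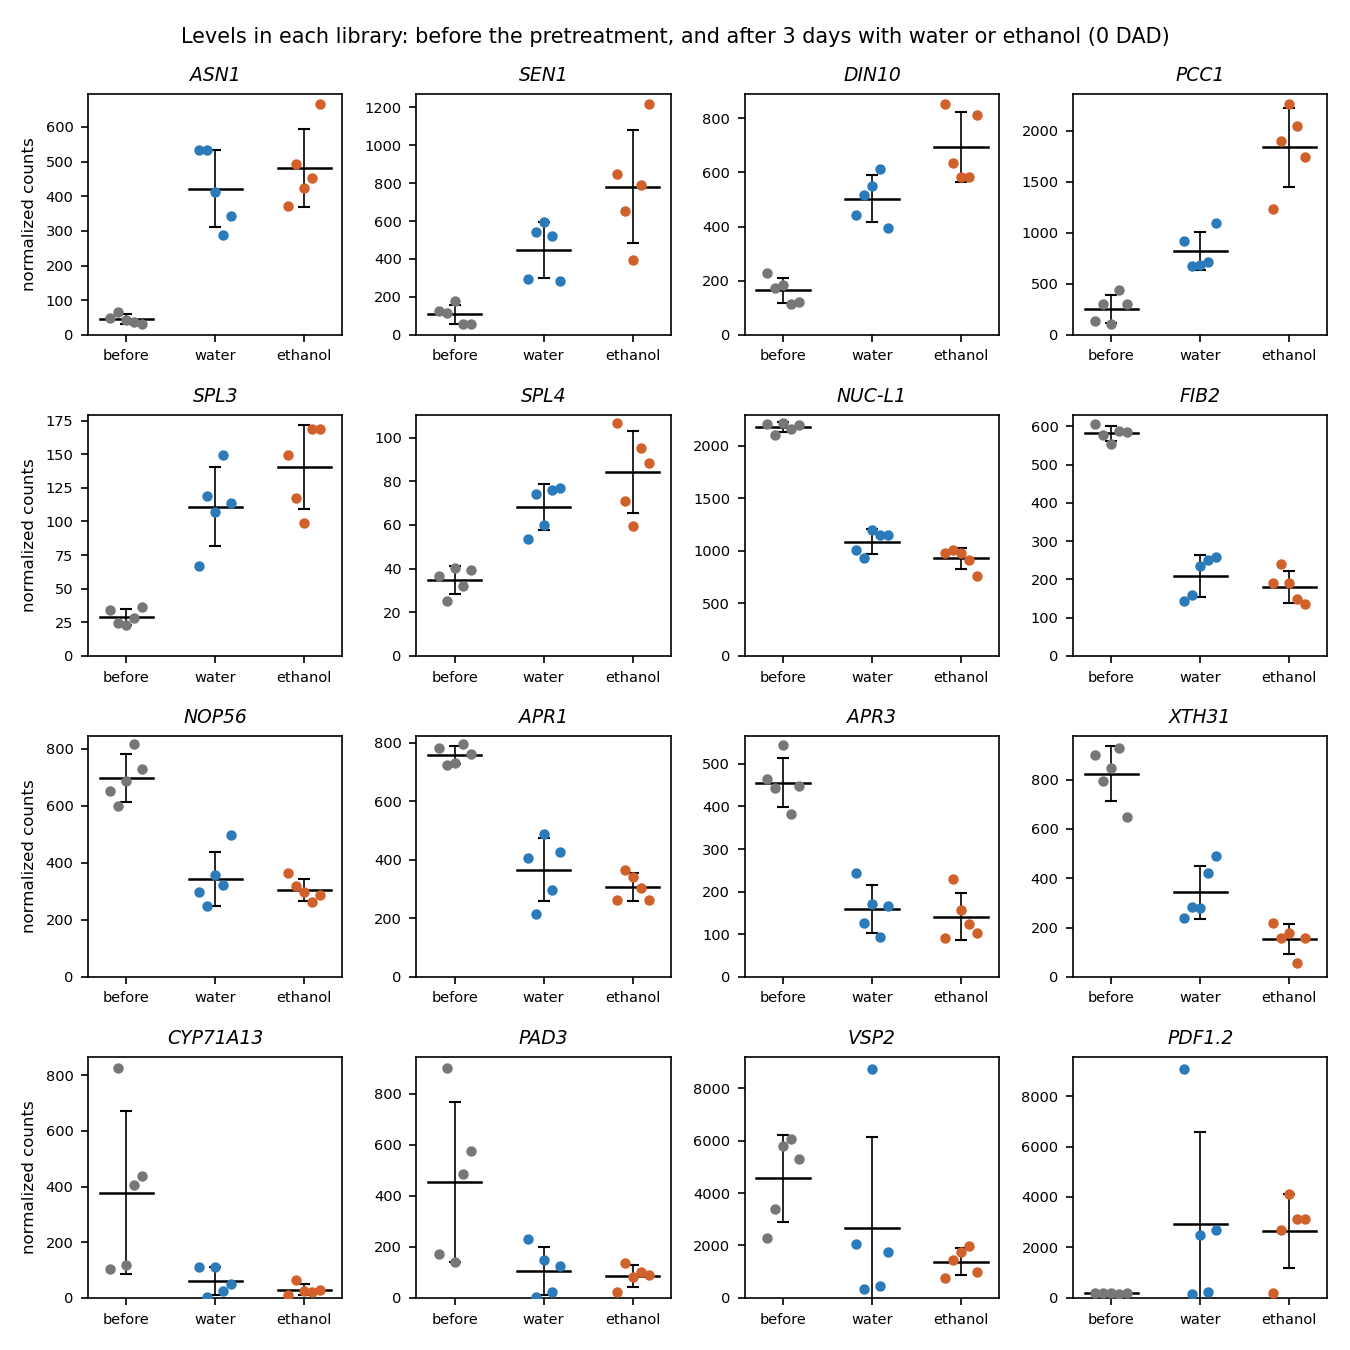
Normalized counts (y axis, from 0) of 16 genes in each library before the pretreatment (grey), after 3 days with water (blue) and after 3 days with ethanol (orange). Points are libraries, horizontal lines group means and bars the SD (n = 5); NUC-L1 lay at 2102 to 2211 before and 758 to 1003 after ethanol, and PDF1.2 was at 192 in 1 ethanol-treated library and at 2679 to 4112 in the others.

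Some genes of flowering and phase change were higher. Of 12 members 11 were tested, 4 were called higher and 0 lower (1.77% of all genes were called higher), and 7 passed the FDR as higher (12.4% of all genes). When only genes that averaged 20 counts or more were tested, 2 were called higher. The called members were SPL3, SPL4 and SPL5, 3 small SPL genes that miR156 controls, and the floral gene AP1. SPL9, another SPL gene of the list, did not pass the FDR, so the SPL genes did not all move together. The sites of the 3 called SPL genes follow the microRNA. Capitals mark its seed (bases 2 to 8) and, in the sites, the bases that pair with the microRNA.
miR156a-5p, chr2:10676534-10676553, minus strand: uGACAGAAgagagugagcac
SPL3 site, chr2:14305878-14305897, plus strand: tTGCTtACTCTCTTCTGTCA
SPL4 site, chr1:19807090-19807109, plus strand: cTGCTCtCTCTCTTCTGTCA
SPL5 site, chr3:5140598-5140617, minus strand: ccGCTCtCTCTCTTCTGTCA
All 3 sites lie in exons outside the coding sequence of their genes (RefSeq, TAIR10.1). The microRNA itself was not measured by these counts.

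SPL3 (AT2G33810) had 34.3, 24.4, 22.8, 28.3 and 36.1 normalized counts before and 149, 118, 98.7, 169 and 169 after ethanol. The groups stood well apart (log2 fold change 2.26, SE 0.199, FDR 9.09e-09). SPL4 had 36.6, 25.1, 40.4, 32.1 and 39.5 before and 107, 71.2, 59.6, 95.5 and 88.6 after (log2 fold change 1.28, SE 0.21, FDR 6.63e-05). SPL5 was low, with 2.87 to 6.72 before and 13.4 to 64.2 after (log2 fold change 2.41, SE 0.473, FDR 0.000496), and replicate 4 of the ethanol-treated plants was its highest library. Without that library the log2 fold change of SPL5 was 1.95 and the call held.

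AP1, a MADS-box gene of floral meristems, had 0 to 5.88 normalized counts before and 10.1 to 27.5 after (log2 fold change 2.92, SE 0.602, FDR 0.000816). The floral integrator SOC1 (AGL20 in the annotation) passed the FDR with a log2 fold change of 0.58 and AGL24 with 0.66. FT, the florigen gene, had 17.9 to 32.1 normalized counts before and 13.9 to 23.9 after and did not pass (log2 fold change -0.32, FDR 0.523), and neither did SPL9 (-0.19) or FLC (-0.08). With water, SPL3 differed from the starting plants by 1.92, SPL4 by 0.97 and SPL5 by 1.8 on the log2 scale. Between ethanol and water none of the 11 tested members passed the FDR, with log2 fold changes of 0.35 for SPL3 (SE 0.185), 0.31 for SPL4 (SE 0.178) and 0.61 for SPL5 (SE 0.373).

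Of 15 members of the sulfur assimilation list 13 were tested, and 6 were called lower and 0 higher (2.15% of all genes were called lower). By the FDR alone 7 were lower and 1 higher (15.4% and 12.4% of all genes). The median log2 fold change of the 13 was -0.90. APR1 (AT4G04610), a reductase of activated sulfate, had 783, 725, 729, 795 and 760.1 normalized counts before and 261, 366, 341, 305 and 263 after ethanol (log2 fold change -1.29, SE 0.1, FDR 1.35e-09). APR3 had 464, 443, 544, 382 and 448 before and 91.0, 231, 157, 125 and 104 after (log2 fold change -1.67, SE 0.234, FDR 0.000471). Neither gene had overlapping groups, and another reductase gene, APR2, passed the FDR at -0.53.

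AT5G26220, a ChaC-like gene, a family that breaks down glutathione, had the largest decrease of the list, from 63.8 to 134 before to 9.84 to 40.9 after (log2 fold change -2.14, FDR 1.66e-05). LSU2 (RESPONSE TO LOW SULFUR) had a log2 fold change of -1.26, and LSU1 of 0.14 with overlapping groups. SULTR1;2, a sulfate transporter, was called at -1.39 (FDR 0.0529) on low counts of 13.2 to 35.1 before and 1.64 to 20.2 after. Its call was lost without replicate 2 or 3 from before the pretreatment (-1.30 and -1.15) or without ethanol replicate 1, 2 or 5 (-1.09, -1.2 and -1.18). SULTR2;1, which moves sulfate in the vascular tissue, passed the FDR as higher by 0.28. The water-treated plants also had 6 members called lower (1.34% of all genes), with a median of -1.04. Between ethanol and water 0 of 13 were called (0.0986% of all genes), and 1 passed the FDR as higher (0.812% of all genes). In that comparison 9 were higher with ethanol and 4 lower, with a median of 0.19.

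The phosphate starvation list had 16 of 21 members tested, 2 called lower and 0 higher (2.15% of all genes were called lower). The lower count was 6 with DESeq2, with all 7 groups in one fit and when genes with at least 1 count were tested, and 4 with 3 groups in one fit and when only genes averaging 20 counts or more were tested. Without replicate 5 from before or ethanol replicate 3, 1 member was called higher. RNS1, a ribonuclease that is secreted under phosphate shortage, had 43.6, 120.5, 59.7, 22.7 and 73.1 normalized counts before and 2.46, 17.0, 19.6, 9.18 and 7.52 after ethanol (log2 fold change -2.52, SE 0.499, FDR 0.00287). PHT1;4, a phosphate transporter, had 58.6 to 124 before and 21.3 to 50.7 after (log2 fold change -1.55, SE 0.243, FDR 3.21e-05). PAP17, an acid phosphatase, passed the FDR at -0.92, while SPX1, a phosphate sensor gene, did not (-0.27, FDR 0.161). The median log2 fold change of the list was -0.32. With water against the starting plants, 5 of 17 tested were called lower (1.34% of all genes), with a median of -0.46. Between ethanol and water 0 of 16 were called, with a median of 0.17.

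On the iron list, 13 of 18 members were tested and 3 were called lower (6 with DESeq2, and 2.15% of all genes in the main test). All 3 are loci that the annotation calls uncharacterized proteins. By the FDR alone 6 were lower and 0 higher (15.4% and 12.4% of all genes). AT2G30766 had 299, 124, 1703, 1383 and 407 normalized counts before and 68.0, 39.4, 17.8, 117 and 94.5 after ethanol (log2 fold change -3.58, SE 0.866, FDR 0.0197). Replicates 3 and 4 from before the pretreatment were far above the other 3. AT1G47395 (-2.19, FDR 0.0948) and AT1G47400 (-2.12, FDR 0.0973) were also highest in these libraries, with 317 and 287 for the former against 23.0 to 63.0 in the others. Both calls were lost when replicate 3, 4 or 5 from before or any ethanol replicate was left out, with values from -2.49 to -1.63 for AT1G47395 and from -2.38 to -1.47 for AT1G47400 over all libraries left out. The storage protein gene FER1 did not pass (-0.08, FDR 0.865), and FER3 passed the FDR at -0.64. With water against the starting plants 1 of 13 was called lower (1.34% of all genes), with a median of -0.42, and AT2G30766 was at -3.15. Between ethanol and water 0 of 13 were called (0.0986% of all genes), with a median of -0.04.

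Nitrate uptake and assimilation moved little apart from ASN1. Of 29 members 26 were tested, 1 was called higher (ASN1) and 0 lower (1.77% and 2.15% of all genes). Without ethanol replicate 1 or 5, 1 was called lower. By the FDR alone 9 were lower and 3 higher (15.4% and 12.4% of all genes). Among the lower were NIR1, nitrite reductase, at -0.68 and NIA1, nitrate reductase, at -0.79. GDH1, a glutamate dehydrogenase, passed the FDR as higher at 0.90, with 148 to 196.4 normalized counts before and 277 to 391 after.

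NIA1 had 171, 177, 155, 142 and 202 normalized counts before, 122, 89.0, 64.0, 77.1 and 132 after ethanol and 297, 292, 180.1, 205 and 156 after water. All ethanol-treated libraries were below both other groups. The direct comparison of ethanol with water called it (log2 fold change -1.21, SE 0.236, FDR 0.0565), though not without ethanol replicate 2 or 4 (-1.17 and -1.15), and 6 nitrate genes passed the FDR there as lower (0.307% of all genes). They were NIA1, NIA2 (-0.69), NIR1 (-0.45), UPM1 (-0.56), which makes the siroheme of nitrite reductase, LBD38 (-0.61), a repressor of nitrogen genes, and ASN2 (-0.77).

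Camalexin genes were lower after ethanol than before. CYP71A13 (AT2G30770) and PAD3 (AT3G26830) encode cytochromes P450 of the synthesis of camalexin, the indole phytoalexin of Arabidopsis. CYP71A13 had 104, 826, 119, 404 and 439 normalized counts before and 9.02, 65.7, 24.0, 22.0 and 29.3 after ethanol (log2 fold change -3.60, SE 0.764, FDR 0.0107). PAD3 had 173, 901, 141, 487 and 576 before and 21.3, 138, 80.9, 103 and 90.3 after (log2 fold change -2.39, SE 0.65, FDR 0.0325). Replicates 1 and 3 from before were low in both genes and replicate 2 was high. With water against the starting plants, CYP71A13 had a log2 fold change of -2.62 (edgeR FDR 0.0838) and PAD3 of -2.09 (edgeR FDR 0.185). Between ethanol and water neither passed the FDR (-0.99 and -0.30). CYP71A13 overlaps AT2G30766 on the opposite strand, and by the methods reads were counted by strand.

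Of 15 jasmonate genes tested, 5 were called lower and 1 higher (2.15% of all genes were called lower), and 10 passed the FDR as lower (15.4% of all genes). The count of 5 was 3 without replicate 2 or 5 from before and with 3 groups in one fit, and 2 without ethanol replicate 5. The median log2 fold change was -0.94. AOC2, allene oxide cyclase, an enzyme of jasmonate synthesis, had 2376, 2447, 2967, 2983 and 3389.9 normalized counts before and 983, 1361, 1243, 1252 and 1412 after ethanol (log2 fold change -1.17, SE 0.108, FDR 1.02e-07). AOS, the enzyme before it, passed the FDR at -0.89, and LOX2, a lipoxygenase, at -0.94. VSP2, a vegetative storage protein induced by jasmonate, had 2268 to 6051 before and 741 to 1981 after (log2 fold change -1.70, SE 0.37, FDR 0.0119). VSP2 ranged from 336 to 8729 among the water-treated libraries. With water against the starting plants, 0 of the 15 jasmonate genes were called lower and 1 higher (1.34% and 1.02% of all genes), with a median of -0.53. Between ethanol and water 0 of 15 were called or passed the FDR, with 1 positive and 14 negative values and a median of -0.41.

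VSP1 (-1.57, FDR 0.0662) and JAZ1 (-1.24, FDR 0.0563), a repressor that jasmonate removes, had overlapping groups. The call of VSP1 was lost without replicate 2 or 3 from before (-1.46 and -1.2) or ethanol replicate 2 or 5 (-1.49 and -1.58). That of JAZ1 was lost without replicate 2 or 5 from before (-1.08 and -1.06) or ethanol replicate 3, 4 or 5 (-1.26, -1.18 and -1.26). AOC1 was the fifth called member (-1.05, FDR 0.0533).

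PDF1.2 (AT5G44420), a defensin induced by jasmonate with ethylene, went the other way. It had 187, 205, 204, 174 and 203 normalized counts before and 192, 2679, 4112, 3108 and 3141 after ethanol (log2 fold change 3.77, SE 0.696, FDR 0.00522). Replicate 1 after ethanol thus lay within the range of the starting plants and the other 4 were more than 10-fold higher. The water-treated libraries were split as well, at 9077, 143, 2478, 223 and 2688.

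Of 15 tested genes of salicylic acid and immunity, PAD3 and BGL2 (PR2), a glucanase, were called lower and 0 higher (2.15% and 1.77% of all genes). By the FDR alone 2 were lower and 3 higher (15.4% and 12.4% of all genes). The log2 fold change was positive for 11 of the 15, with a median of 0.31. Without replicate 2 from before 1 was called higher, and 2 without ethanol replicate 1. BGL2 had 105, 284, 107, 132 and 148 before and 26.2, 55.7, 105, 55.1 and 61.0 after ethanol (log2 fold change -1.36, SE 0.405, FDR 0.0431). Replicate 2 from before stood apart, and without it the log2 fold change was -0.99 and the fold threshold was missed. PR1 varied from 14.1 to 208 before and from 8.20 to 456.4 after and was not called (1.83, FDR 0.235).

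No glucosinolate gene was called among 22 tested, while 11 passed the FDR as lower (15.4% of all genes). Among these, CYP79F1, which starts the synthesis of short-chain aliphatic glucosinolates, had a log2 fold change of -0.59, and SUR1, the C-S lyase, of -0.47. The regulators MYB28 (-0.05) and MYB29 (0.24) did not pass. With water against the starting plants, 2 of the 22 glucosinolate genes passed the FDR as lower and 1 as higher (1938 and 1441 of all 17203 genes), with a median of -0.15. Between ethanol and water 0 of 22 passed it, with 3 positive and 19 negative values and a median of -0.18. Of 18 flavonoid genes tested, 1 was called lower (2.15% of all genes), the anthocyanin transport gene GSTF12 (TT19), with 168, 156, 223, 298 and 286 normalized counts before and 111, 109.8, 96.9, 110.1 and 79.4 after ethanol (log2 fold change -1.13, SE 0.172, FDR 3.79e-05). The flavonoid genes called lower numbered 4 without replicate 2 from before, 3 without replicate 1 from before or ethanol replicate 2 or 4, and 2 without ethanol replicate 1 or with all 7 groups in one fit. By the FDR alone 11 were lower, with TT4, chalcone synthase, at -1.0, just short of the fold threshold. The repressor MYBL2 passed the FDR as higher at 0.84. With water against the starting plants, 2 of 19 flavonoid genes tested were called lower (1.34% of all genes), with a median of -0.41. Between ethanol and water 0 of 19 were called, with a median of -0.16.

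**Figure D3:**
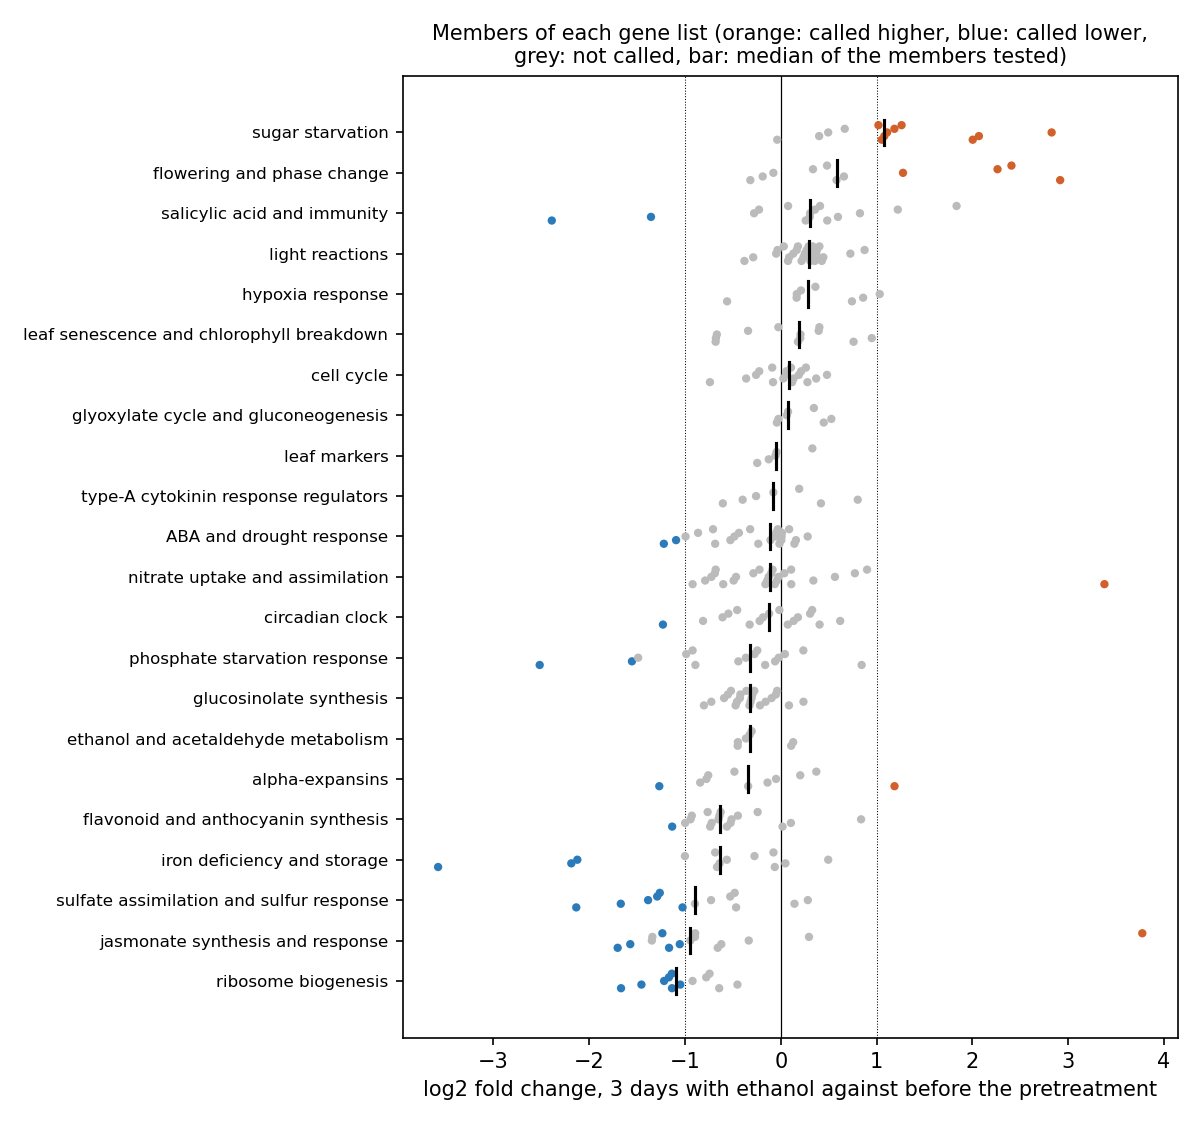
Log2 fold change after 3 days with ethanol against before the pretreatment (x axis) for the tested members of each gene list (y axis). Points are genes, orange where called higher, blue where called lower and grey otherwise, and bars are medians; the medians ran from -1.09 for ribosome biogenesis to 1.08 for sugar starvation.

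Nuclear genes of the light reactions were slightly higher. None of 29 tested was called, and 20 passed the FDR as higher and 1 as lower (against 12.4% and 15.4% of all genes), with a median log2 fold change of 0.29. Without replicate 5 from before, or ethanol replicate 1, 3, 4 or 5, 1 member was called lower, as it was with DESeq2. In the main test 1 of the 30 members had too few counts, and the lowest log2 fold change among the 29 tested was -0.38. The antenna gene LHCB4.2 was the highest at 0.87, with 8689 to 9402 normalized counts before and 15105 to 19344 after ethanol, and LHCB2.2 had 0.73. NPQ4 (PSBS), which protects photosystem II from excess light, was the member that passed as lower (-0.38, FDR 0.000666). With water against the starting plants, 21 of 30 tested passed the FDR as higher (1441 of all 17203 genes), with a median of 0.28. Between ethanol and water 0 of 29 passed it, with a median of -0.01.

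No cell cycle gene was called among 18 tested. SYP111 (KNOLLE), a syntaxin of the division plane, passed the FDR as higher at 0.48 and PCNA1, a replication clamp, as lower at -0.74. Among 11 alpha-expansins, which loosen cell walls, EXPA8 was called higher and EXPA10 lower (1.77% and 2.15% of all genes). EXPA8 had 420.1, 356, 404, 331 and 283 normalized counts before and 970.4, 711, 734, 710.4 and 936 after ethanol (log2 fold change 1.19, SE 0.115, FDR 8.16e-08). EXPA10 had 401, 429.6, 414, 359 and 422 before and 125 to 204 after (log2 fold change -1.27, SE 0.12, FDR 2.85e-08). EXPA10 was also lower with ethanol than with water (log2 fold change -0.62, SE 0.137, FDR 0.0391), and its 5 ethanol-treated libraries were below the 5 water-treated ones, which lay at 220.3 to 336.

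Among the clock genes, 17 of 18 were tested, with 1 called lower and 0 higher (2.15% and 1.77% of all genes). By the FDR alone 5 were lower and 2 higher (15.4% and 12.4% of all genes). The log2 fold change was positive for 7 of the 17 and negative for 10, with a median of -0.12. ELF4, a gene of the evening complex, was called lower, with 674, 824, 701, 667 and 607 normalized counts before and 326, 315, 259.6, 272 and 295 after ethanol (log2 fold change -1.23, SE 0.098, FDR 1.85e-09). With water against the starting plants ELF4 was at -1.60 (edgeR FDR 3.78e-10), and between ethanol and water at 0.38 (edgeR FDR 0.146). The evening genes TOC1 (-0.55), PCL1 (LUX, -0.61) and PRR3 (-0.81) passed the FDR as lower, and the morning genes CCA1 (0.18) and LHY (0.07) did not. The time of day of each harvest is not given in the sources used here, and its part in these values was not tested. Of 12 senescence genes 0 were called (1 higher without replicate 4 from before), with WRKY53, a regulator of leaf ageing, passing the FDR as lower (-0.67) and the transcription factor gene NAP as higher (0.76). Of 7 tested type-A cytokinin response regulators 0 were called (1 higher without replicate 4 from before).

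The genes of ethanol and acetaldehyde metabolism did not reach the fold threshold. Of 10 members 7 were tested, 0 were called, and 3 passed the FDR as lower and 0 as higher (15.4% and 12.4% of all genes). ADH1, alcohol dehydrogenase, had 91.2, 108, 94.0, 90.7 and 117 normalized counts before and 94.3, 119, 115, 130.3 and 83.6 after ethanol. These ranges overlapped almost fully (log2 fold change 0.11, SE 0.156, FDR 0.685). ALDH2B4, a mitochondrial aldehyde dehydrogenase, had 980.5 to 1144 before and 779 to 913 after, without overlap (log2 fold change -0.30, SE 0.0807, FDR 0.00761). ALDH2C4 passed the FDR at -0.36 and ACS, acetyl-CoA synthetase, at -0.45, while ALDH2B7 did not (-0.45, FDR 0.174).

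Between ethanol and water, none of the 7 passed the FDR, with 0.15 for ADH1 (SE 0.162), -0.05 for ALDH2B4 (SE 0.0935) and -0.28 for ACS. On the list of the glyoxylate cycle and gluconeogenesis, 7 of 11 were tested and 0 called. PCK1, the carboxykinase that starts gluconeogenesis, passed the FDR at 0.53, and CSY2 and CSY3, peroxisomal citrate synthases, at 0.45 and 0.35. PMDH2, a peroxisomal malate dehydrogenase, had 5217 ± 315 normalized counts before and 5456 ± 374 after (SD, n = 5 each; log2 fold change 0.08, FDR 0.522). Isocitrate lyase (ICL) and malate synthase (MLS) had too few counts to be tested. ICL had at most 2.87 normalized counts before and 7.34 after ethanol. MLS was at 0 in all 5 libraries from before and had 3.28, 1.55, 2.67, 3.67 and 5.02 after ethanol, 17 raw counts in all, and 0 to 5.77 after water. When genes with at least 1 count were tested, 1 member of this list was called higher. Of 8 tested hypoxia genes 0 were called, but 1 was called higher without replicate 1, 2, 4 or 5 from before or ethanol replicate 1, and 2 without replicate 3 from before or with DESeq2. EBP (RAP2.3), an ethylene response factor, passed the FDR at 0.86.

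Among ABA and drought genes, the called members were lower at this stage before drought. Of 24 members 23 were tested, 0 were called higher and 2 lower (1.77% and 2.15% of all genes). By the FDR alone 0 were higher and 8 lower (12.4% and 15.4% of all genes), with a median log2 fold change of -0.11. LTI78 (RD29A) had 1542, 2064, 2038, 2605 and 2519.8 normalized counts before and 852, 853, 748, 1419 and 724 after ethanol (log2 fold change -1.22, SE 0.221, FDR 0.00396). Its groups did not overlap, although replicate 4 after ethanol lay well above the other 4. COR15A, a cold-regulated chloroplast protein gene, had 5737 to 12504 before and 3667 to 4764 after (log2 fold change -1.09, SE 0.203, FDR 0.0043). Without replicate 4 from before its value was -0.95, short of the fold threshold.

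LTI65 (RD29B) had 173 to 266.4 before and 184 to 220.4 after (log2 fold change 0.01, SE 0.122, FDR 0.961). LEA7, a late embryogenesis abundant protein gene, had a log2 fold change of -0.06 (SE 0.0942, FDR 0.73) and NCED3, of ABA synthesis, 0.01 (SE 0.193, FDR 0.987). DREB2A, a drought transcription factor, passed the FDR as lower (-0.71, SE 0.238, FDR 0.0347), from 55.2 ± 16.5 to 32.5 ± 4.98 normalized counts (SD, n = 5 each). With water, 5 of the list were called lower against the starting plants (1.34% of all genes), and COR15A had a log2 fold change of -1.55. Between ethanol and water 0 of 24 were called, and LTI78 differed by 0.22 (SE 0.262, FDR 0.835). In that comparison 20 of the 24 were higher with ethanol and 4 lower, with a median log2 fold change of 0.20. Of these, 1 passed the FDR as higher (0.812% of all genes).

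The comparison of the ethanol-treated with the water-treated plants at 0 DAD tests ethanol at equal age. It called 12 genes higher and 5 lower of 17242 tested (0.0986% in all, 0.0696% higher and 0.029% lower), and 1865 genes had an unadjusted p under 0.05. For comparison, water against the starting plants called 175 genes higher and 231 lower of 17203 (2.36%). The comparisons with the starting plants share those 5 libraries, so their values are only given side by side. The counts between ethanol and water depended on single libraries. With 1 library left out they ran from 2 to 27 higher and from 1 to 11 lower, with the largest counts of 27 and 11 without ethanol replicate 1 and the smallest of 2 higher without ethanol replicate 4 and 1 lower without ethanol replicate 2 or 3. Without ethanol replicate 2 there were 5 higher, and without ethanol replicate 3, 4. Without water replicate 1, 3 or 5 there were 7, 6 and 6 higher and 3 lower each time.

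PCC1, described above, was among the genes higher with ethanol than with water, with 678 to 1099 normalized counts after water (log2 fold change 1.17, SE 0.195, FDR 0.039), a call that was lost without ethanol replicate 2 or 4 (1.16 and 1.12), or in a fit of 3 groups (edgeR FDR 0.162) or of all 7 (FDR 0.405). AT5G10770, an aspartyl protease gene, had 34.3, 25.1, 28.1, 26.4 and 28.6 normalized counts before, 25.1, 34.5, 23.1, 45.7 and 41.4 after water and 50.8, 68.1, 80.9, 117 and 74.4 after ethanol. Its ethanol-treated libraries were above both other groups (1.43 against the starting plants, FDR 4.92e-05, and 1.21 against water, FDR 0.018). P1R3, annotated as an uncharacterized protein, had 5.67 to 16.5 before, 9.05 to 27.9 after water and 30.9 to 49.6 after ethanol (1.65 against the starting plants and 1.2 against water, FDR 0.0693). The call of P1R3 against water was kept only without ethanol replicate 1 or water replicate 4, with values from 1.03 to 1.4 over all libraries left out, and lost with all 7 groups in one fit (edgeR FDR 0.69). That of AT5G10770 was kept with any library left out (1.03 to 1.34) but lost with all 7 groups in one fit (edgeR FDR 0.286).

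DEG14 (AT5G27660), a gene of the Deg protease family, had 1467, 923, 1183, 599 and 389.7 normalized counts before, 599, 517, 1113, 1533 and 493 after water and 242 to 290.1 after ethanol. The ethanol-treated libraries were close to each other and below all 10 others. The log2 fold change was -1.79 against the starting plants (SE 0.348, FDR 0.00675) and -1.68 against water (SE 0.342, FDR 0.0985). The call against water was kept only without water replicate 4, with values from -1.82 to -1.37 over all libraries left out, and lost with all 7 groups in one fit (edgeR FDR 0.424).

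AT1G68600, of the aluminum activated malate transporter family, was lower with water than in both other groups. It had 182, 203, 263, 259 and 314 normalized counts before, 229, 320.2, 301, 393 and 177 after ethanol and 113, 109, 144, 116 and 128 after water. The log2 fold change was 0.22 between ethanol and the starting plants (SE 0.216, FDR 0.531), -0.99 between water and the starting plants (FDR 2.34e-05) and 1.22 between ethanol and water (SE 0.181, FDR 0.00823). ELF4-L1, related to ELF4, had 0.57 against the starting plants (FDR 0.234) and 1.39 against water (FDR 0.0641), where the call was kept only without ethanol replicate 1 or 5 or water replicate 4 (1.26 to 1.58 over all libraries left out).

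**Figure D4:**
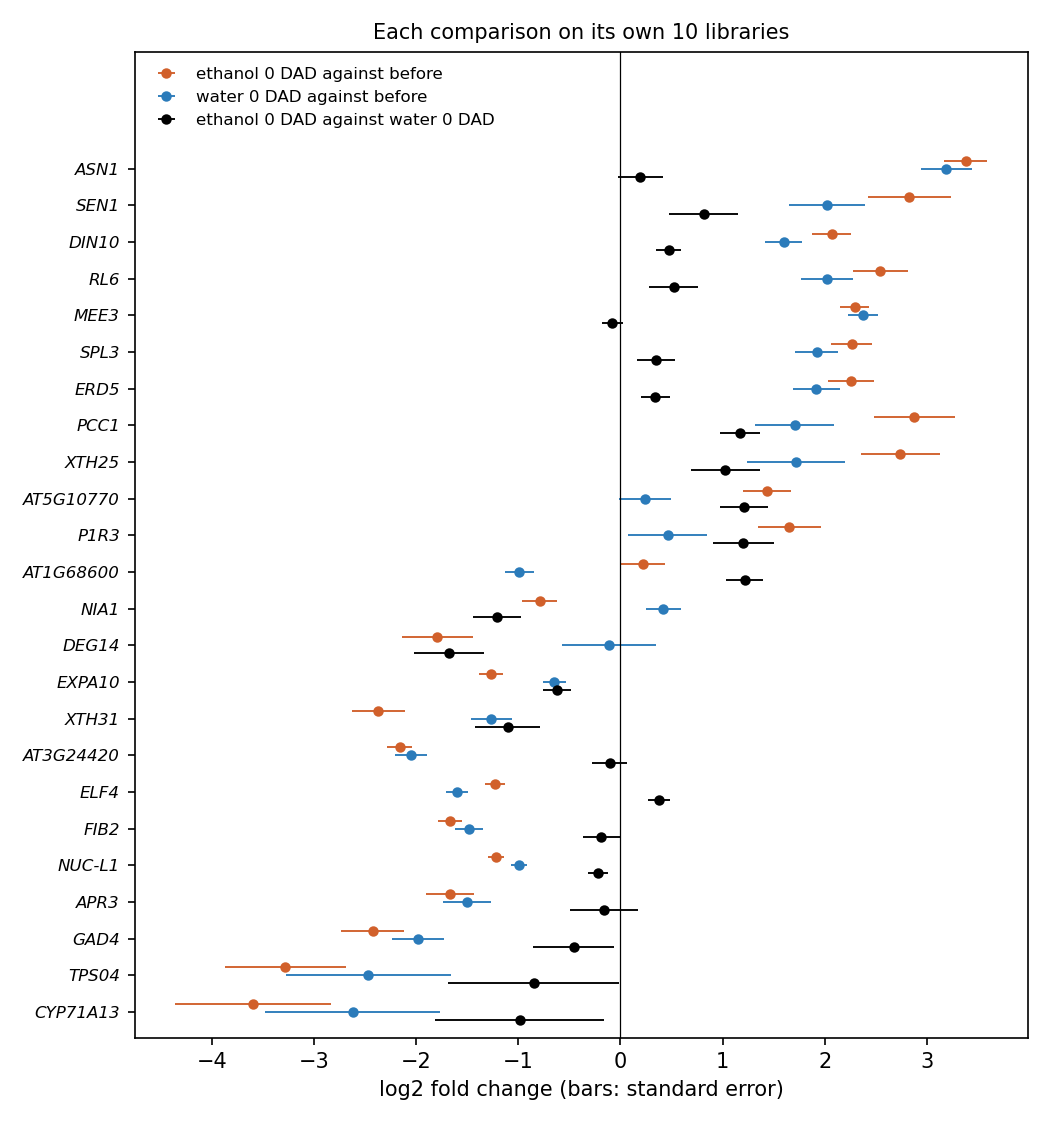
Log2 fold changes (x axis, bars are the SE) of 24 named genes for ethanol at 0 DAD against before the pretreatment (orange), water at 0 DAD against before (blue) and ethanol against water at 0 DAD (black). ASN1 was at 3.38, 3.19 and 0.20 in that order, FIB2 at -1.67, -1.48 and -0.19 and DEG14 at -1.79, -0.11 and -1.68.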

How the data were processed

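Shoot RNA of the Col-0 ecotype was sequenced by the authors as Lasy-Seq libraries. By the methods of the study, R1 reads were trimmed with Trimmomatic, mapped to TAIR10 with HISAT2 and counted by strand with featureCounts, with a read that overlaps several genes counted for each and primary alignments only. The labels and the methods name different RNA kits. The deposited raw counts were tested. Levels are the normalized counts, deposited as a signal for which the authors divided each library by 1 factor. Columns without a sample numbered 0, and groups and replicates came from the titles.

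Each comparison was fitted on its own 10 libraries in R 4.3.3 with edgeR 4.0.16: filterByExpr, TMM, a robust quasi-likelihood F-test and adjustment by Benjamini-Hochberg over all genes tested. The SE is the log2 fold change over the square root of F. Means are given with the SD and n = 5 libraries. Single values per library were compared by exact permutation tests. The procedure was tested on simulated data.

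The 23 gene lists, by locus, and the members were chosen with earlier results of these data known. Named genes were up to 10 a direction with the largest change (called, no overlap, mean of at least 20 counts), up to 4 called members a direction of each list, the genes that the study names, and up to 5 a direction between ethanol and water. Of the IDs, 26720 matched the RefSeq annotation of TAIR10.1, used for names, positions and sequences. Copies were searched with BLAST 2.17.0 (95% over 100 bp), and 2 of 68 named genes had one.

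Alternatives were DESeq2 1.42.0, other scalings, filters and thresholds, joint fits, a replicate block and each library left out. Totals of 3781405 to 10122705 counts limit genes with few reads, and 10333 genes were not tested.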

Additional observations from a re-analysis of the deposited data

Results flagged for a closer look

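In 7 of 142 groups of 5 libraries examined, 1 library stood apart from the other 4 by Dixon's criterion, which chance alone meets in about 1 in 20 groups. Replicate 4 had low totals in both groups, 4162342 counts before the pretreatment and 3781405 after ethanol. In replicate 4 from before, the 10 most abundant genes took 12.4% of the counts, more than in the other 4. LTI78 (RD29A) was high in ethanol replicate 4 at 1419 normalized counts, and SPL5 in the same library at 64.2. BGL2 (PR2) was high in replicate 2 from before at 284 normalized counts, and LTI65 (RD29B) in replicate 4 from before at 266 normalized counts.

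Some genes differed between the ethanol-treated and the water-treated plants in the direct test at 0 DAD (edgeR, FDR under 0.1). The log2 fold change was 1.17 for PCC1, 1.39 for ELF4-L1, 1.22 for AT1G68600, 1.22 for XTH15, 1.21 for AT5G10770 and 1.2 for P1R3. It was -1.68 for DEG14, -1.21 for NIA1, -1.15 for AT4G39570, -1.03 for AT1G68238 and -1.01 for AT4G39780. In each of these 11 genes the libraries of both groups did not overlap, as was required for naming them.

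Several of these calls depended on single libraries. That of XTH15 was kept only without ethanol replicate 1 or water replicate 5, with values from 0.97 to 1.38 over all libraries left out. That of AT4G39570 was kept only without ethanol replicate 1 or 5 (-1.45 to -0.97). With all 7 groups in one fit the edgeR FDR was 0.59 for XTH15, 0.13 for AT4G39570 and 0.286 for AT1G68238. AT1G68238 missed the fold threshold without water replicate 2 (-0.96) or ethanol replicate 3 or 4 (-0.96 and -0.98), and AT4G39780 without water replicate 1 or 2 (-0.96 and -0.89) or ethanol replicate 2 or 3 (-0.96 and -0.96).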

How the results depend on the processing

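The 302 higher and 368 lower genes became 416 and 430 with DESeq2, 293 and 371 with library size only, 306 and 371 with a replicate block, 479 higher when genes with at least 1 count were tested, and 2116 and 2624 without a fold threshold. With 1 library left out they ran from 275 to 358 higher and from 323 to 405 lower. Between ethanol and water the 12 and 5 genes became 11 and 7 with DESeq2, 3 and 3 with all 7 groups in one fit, 4 and 2 with the replicate block, 4 and 2 at an FDR under 0.05, and 140 and 53 without a fold threshold, and from 2 to 27 and from 1 to 11 with 1 library left out. Water against before gave 253 and 303 with DESeq2 and 1441 and 1938 without a fold threshold. Same-numbered libraries of ethanol and before correlated weakly in their deviations from the group means (0.19, 0.13, -0.04, 0.00 and 0.02 for numbers 1 to 5). For ethanol replicates 1 and 2 the best match was the same number, and for 3, 4 and 5 it was not. With 5 libraries a side this cannot settle whether the numbers pair the samples. Of 52 named genes called in ethanol against before, 44 kept their call under every alternative run and 8 did not, 7 of which were described with their libraries left out. VSP2 was the other, at -1.69 with 3 groups in one fit. None of the 52 reversed. Near 0, the sign of LTI65 turned without replicate 1 or 5 from before or ethanol replicate 2 (-0.0329 to 0.115 over all libraries left out), that of LEA7 without replicate 4 from before (-0.126 to 0.00638), and that of NCED3 with library size only (-0.0036) and without replicate 1, 3 or 4 from before or ethanol replicate 2 or 5 (-0.067 to 0.177). The difference of total counts between ethanol and before ran from -1152030 to 900597, that of the chloroplast share from -0.171 to 0.29 and that of the share of the 10 most abundant genes from 0.601 to 1.09 percentage points with 1 library left out. List counts stayed within 1.5 times in 814 of 874 recomputed. The cause of these shifts was not tested. Counts under about 20 per library limit genes such as AP1, SPL5 and SULTR1;2.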

Other observations

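Several gene families outside the lists moved in part together. They were chosen after their values were seen, so their counts are descriptions. Of 305 genes described as ribosomal proteins of the cytosol, 275 were tested, and 14 were called lower and 1 higher (2.15% and 1.77% of all genes). By the FDR alone 216 were lower and 5 higher (15.4% and 12.4% of all genes), with a median log2 fold change of -0.50. Of 28 tested glutathione S-transferases of the tau and phi classes, which conjugate toxic compounds with glutathione, 9 were called lower (2.15% of all genes) and 1, GSTF4, higher, with a median log2 fold change of -0.67. GSTU24 had 108, 301, 136, 157 and 268 normalized counts before the pretreatment and 10.7, 80.4, 41.8, 38.5 and 47.6 after ethanol, without overlap (log2 fold change -2.12, FDR 0.0155).

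Of 6 PDF1 defensin genes tested, 4 were called higher (1.77% of all genes), namely PDF1.3 (4.09), PDF1.2 (3.77), PDF1.2c (3.34) and PDF1.2b (3.15). With water against the starting plants they were at 4.37, 3.92, 3.73 and 3.01 in that order. PDF1.3 had 46.2 to 73.2 normalized counts before and 45.9, 651, 1909, 1166 and 1410.2 after ethanol. As in PDF1.2, replicate 1 after ethanol was the low library and, among the water-treated ones, replicates 2 and 4. These genes belong to the same family, and whether reads are shared among them was not tested. The search for near-identical copies (95% over 100 bp) found none for PDF1.2. Of 3 beta-xylosidase genes tested, BXL1 and BXL2, of cell wall sugar release, were called higher (1.77% of all genes). BXL1 had 238, 321, 230.1, 249 and 213 normalized counts before and 1202, 964, 1047, 1160.1 and 1271 after ethanol, without overlap (log2 fold change 2.18, SE 0.108, FDR 8.63e-13), and it was higher with ethanol than with water by 0.59 (FDR 0.0114).

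Of 18 tested XTH genes of xyloglucan remodelling, XTH25, XTH17, XTH6 and XTH24 were called higher and XTH31 and XTH19 lower (1.77% and 2.15% of all genes). With water against the starting plants their log2 fold changes were 1.72, 1.67, 0.73, 0.44, -1.27 and -2.41 in that order. Of 5 tested RADIALIS-like genes, RL6, MEE3 and RL5 were called higher (1.77% of all genes). With water against the starting plants they were at 2.02, 2.37 and 0.99. DIN2, another dark-inducible gene, had a log2 fold change of 2.06 (FDR 0.0259) and PORA, a protochlorophyllide reductase, of 2.0 (FDR 1.7e-09). RVE2, a clock-related MYB gene, had -2.17 (FDR 0.000526) and COR27, a cold-regulated gene that the clock controls, -2.01 (FDR 0.000629).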
